A study of Mus musculus with 6 samples.

Results

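The renal epithelial transcription factors described here are 8 genes: Pax2, Pax8, Lhx1, Tfap2b, Grhl2, Ehf, Foxi1 and Irx3. They were chosen by name, and every probe set paired with 1 of them in the platform annotation was taken. That gave 16 of the 45037 probe sets on the array and 7 of the 18193 genes with a probe set of their own. No probe set used here was paired with Pax2, so Pax2 was not analysed here. Their RNA was measured on 6 single-channel mouse arrays, 3 for juxtaglomerular (JG) cells and 3 for renal mesenchymal stromal cells (MSC). JG cells, the renin-making cells of the wall of the afferent arteriole, were sorted as YFP-positive cells of adult C57BL6 mice of the genotype Ren1c YFP. The MSC came from adult mice of the same strain and genotype, were sorted with CD44, a surface antigen, and were grown to confluence in medium with 10% serum. The labels put that growth medium on the JG samples too, and they do not say how Ren1c drives the YFP, whether animals were pooled, or whether replicate samples had different animals as their source. The p-values therefore measure the spread between these samples.

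The families of these transcription factors direct the formation of kidney tubules and keep their cells epithelial. Pax2 and Pax8 are paired-box proteins that commit embryonic mesoderm to the kidney lineage, and Lhx1, a LIM homeobox protein, acts with them in the nephric duct and the early nephron. Later factors belong to parts of the nephron: Irx3 to its proximal and middle parts, Tfap2b to the distal convoluted tubule, and Foxi1 to the acid- and base-secreting intercalated cells of the collecting duct. Grhl2 and Ehf are factors of epithelial cells in many organs, and Grhl2 activates genes of cell-cell junctions.

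In the JG samples 4 of the 7 measured genes were called higher than in MSC, and none was called lower. Called means an adjusted p under 0.05 in a limma fit over all genes, with each gene represented by its brightest probe set. The 4 were Ehf, Irx3, Lhx1 and Tfap2b. Among all 18193 genes, 7.7% were called higher in JG and 7.71% lower. The median difference JG minus MSC was 1.58 for the 7 members and 0.07 for all genes, in units of log2(intensity + 16). When every probe set was tested by itself, 4 of the 16 were called higher, namely 2 of Ehf and 1 each of Lhx1 and Irx3, and none lower. The background of that fit was 4.23% of all 45037 probe sets higher and 5.57% lower. The 3 JG values lay above the 3 MSC values for 9 of the 16 member probe sets and below them for 2, where 16.1% and 18.1% of all probe sets did so. Without MSC sample 1 or MSC sample 2, 2 genes (Ehf and Lhx1) and 1 probe set (Lhx1) were called higher, 2 probe sets were without MSC sample 3, and 8 probe sets were without JG sample 2. Shares of all features called in those fits with a sample left out are not given here. The added 16 means that a gene below 16 in MSC has a difference set by the JG value, which understates its size. Of the 16 probe sets, 11 lay below 16 in every MSC sample and 2 in every sample of both groups.

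**Figure D1:**
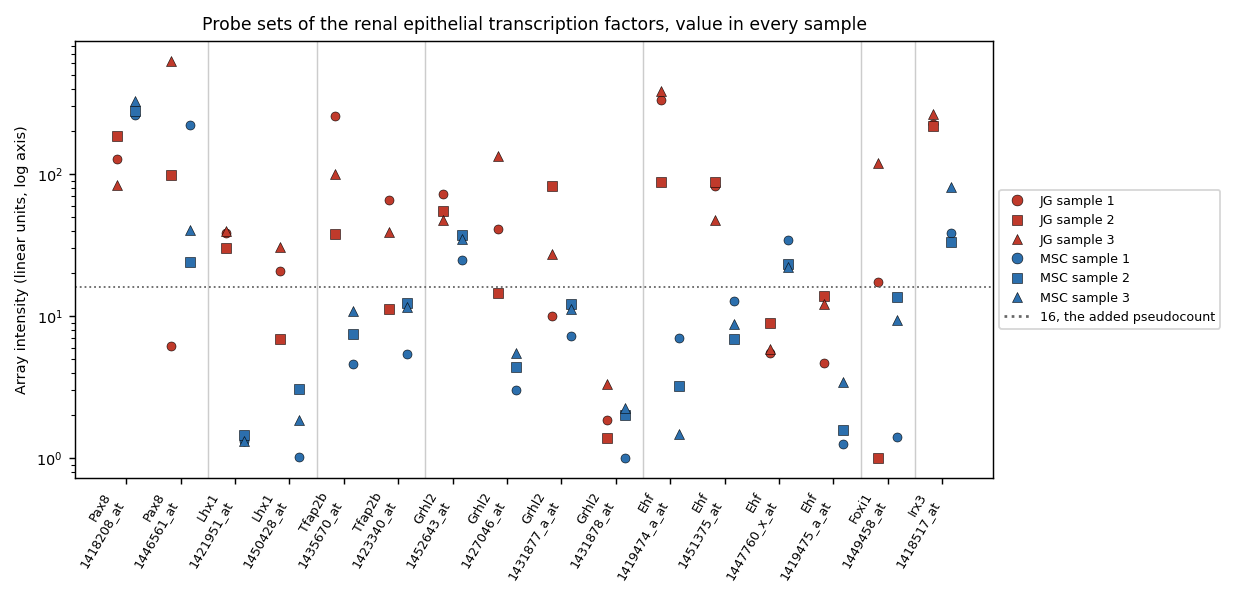
Array intensity on a log axis for each of the 16 member probe sets, with JG samples in red left of the MSC samples in blue, and the sample number given by the marker shape. The Lhx1, Irx3 and brightest Ehf probe sets separate the groups with JG above, the brighter Pax8 probe set separates them with JG below, and Foxi1 reaches 120.02 in JG sample 3 only.

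**Figure D2:**
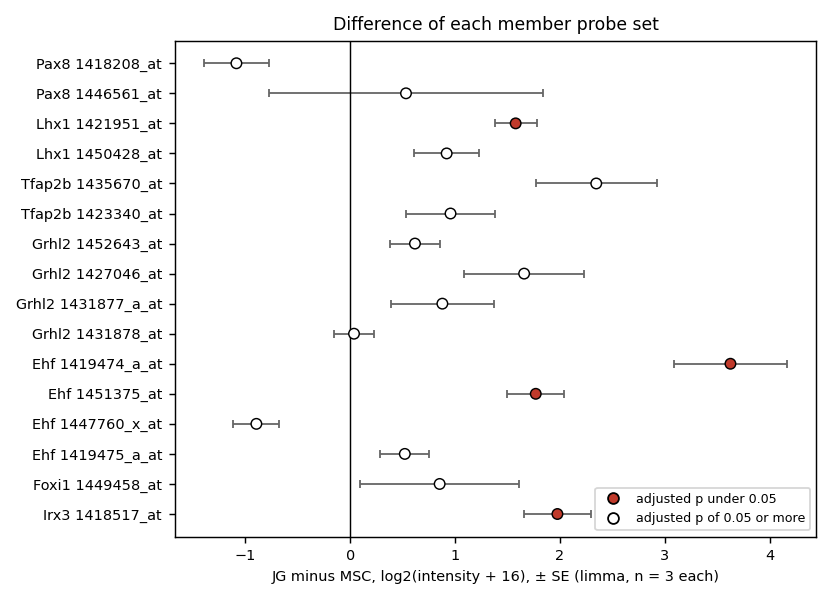
JG minus MSC difference on the log2 scale with its standard error for each member probe set, from the limma fit over all probe sets with 3 samples per group. Of the 16 points 14 lie right of 0, and the 4 filled points are those with an adjusted p under 0.05.

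The samples were looked at first. Array medians ran from 27.41 to 36.5 in JG and from 27.3 to 34.06 in MSC, so a member at 30 was near the middle of its array. The arrays correlated on average at 0.84 to 0.88 with the rest of their own group in JG and at 0.97 in MSC, across genes. JG sample 1 stood nearest to MSC, with a mean correlation of 0.81 to the 3 MSC arrays, against 0.68 for JG sample 2 and 0.77 for JG sample 3. Cd44, the antigen of the MSC sort, averaged 139 ± 17.3 in JG and 974 ± 81.9 in MSC (SD, n = 3 each), a difference of -2.68 ± 0.22 (SE, limma adjusted p = 0.000871). Of 7 renin cell markers 5 were measured, and Rgs5 and Ace were called higher in JG; Ren1 and Akr1b7 were not analysed here. Without MSC sample 1 neither was called, and 1 of them was without JG sample 2, MSC sample 2 or MSC sample 3.

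The JG samples also held RNA of genes used as markers of tubule cells. In JG, all 10 markers of the proximal tubule passed the test as higher, with summed intensities of 22907 to 31013 in JG and 392 to 711 in MSC, led by Kap, Slc5a2 and Slc34a1, each between 4085.09 and 7975.49 in the JG samples. Of the thick ascending limb markers 5 of 7 were higher, of the distal convoluted tubule 6 of 7 and of principal cells 4 of 8 (5 without JG sample 2). Of intercalated cells 7 of 7 were higher and of epithelium in general 4 of 7 (6 without JG sample 2). Without any 1 MSC sample, 4 thick ascending limb, 5 distal, 3 principal cell and 3 general epithelial markers were called. The distal count was also 5 without JG sample 3. Endothelial markers were higher for 3 of 7 and leukocyte markers for 4 of 7, with summed intensities of 718 to 813 and 1356 to 3788 in JG, against 116 to 136 and 91.9 to 286 in MSC. Leaving out JG sample 3, MSC sample 2 or MSC sample 3 left 4 of the 7 intercalated markers called. A single endothelial marker, 1 of the 3, was still called when JG sample 3 or any MSC sample was dropped, and leaving out MSC sample 1, 2 or 3 left 1, 2 or 1 leukocyte markers, with 2 without JG sample 2. In a bulk sample, fewer cells of a type and less RNA per cell cannot be told apart. Of 8 stromal markers Thy1 and Nt5e were called higher in JG and Cd44 and Vim lower, with sums of 9311 to 23137 in JG and 25884 to 33463 in MSC. Both stromal counts became 1 without JG sample 3 or any MSC sample, the higher one also without JG sample 2, and 4 were lower without JG sample 1. Whether such other cells were present, and any part of theirs in the members' differences, was not tested.

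Ehf, an Ets factor of epithelia, had the largest difference of the 7 members by their brightest probe sets. Its brightest probe set (1419474_a_at) read 334.29, 87.22 and 384.03 in JG samples 1 to 3, against 6.96, 3.23 and 1.47 in MSC samples 1 to 3. The groups did not overlap, and JG sample 2 was the low one. The difference was 3.62 ± 0.54 (limma adjusted p = 0.00801 over all genes). Ehf kept an adjusted p under 0.05 in the gene fit whichever sample was left out, with 0.0455 as the highest. With the mean of its 4 probe sets the difference was 1.25 (limma adjusted p = 0.00731), below the 1.97 of Irx3 and the 1.65 of Tfap2b in that fit.

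The other 3 probe sets of Ehf did not all give the same answer. A second one (1451375_at) read 81.88, 87.66 and 47.69 in JG and 12.86, 6.86 and 8.8 in MSC and was also called (1.77 ± 0.27, limma adjusted p = 0.0137 over all probe sets). Here JG sample 3 was the low one, in contrast to the brightest probe set, where it was the high one. Another (1447760_x_at), whose suffix x marks probes that can match other transcripts, ran the other way, at 5.5, 8.9 and 5.89 in JG and 34.25, 23.35 and 22.19 in MSC. It was not called (-0.90 ± 0.22, limma adjusted p = 0.0565), but the groups did not overlap. The fourth (1419475_a_at) stayed below 16 on all 6 arrays.

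Grhl2, the grainyhead-like factor of epithelial junctions, was read by 4 probe sets, of which none was called. The brightest (1452643_at) read 72.8, 55.01 and 47.6 in JG and 25, 37.25 and 35.01 in MSC. The JG values lay above the MSC values, by 0.62 ± 0.25 (limma adjusted p = 0.149). A second (1427046_at) had a wider gap and a wider spread, with 41.29, 14.43 and 133.77 in JG and 3.04, 4.35 and 5.48 in MSC (1.66 ± 0.57, limma adjusted p = 0.127 over all probe sets). Another (1431877_a_at) was highest in JG sample 2, at 81.99, with 10.01 and 27.45 in JG samples 1 and 3 and 7.23 to 12.16 in MSC. The fourth (1431878_at) lay between 1 and 3.35 on all arrays. With the mean of the log2 values of its 4 probe sets in place of the brightest, Grhl2 was called (0.80, limma adjusted p = 0.0443).

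Genes known to respond to GRHL2 were also looked at. Of 13 on the list, Cdh1, Epcam and St14 were called higher in JG and Esrp2 lower, and the median difference was 1.26. Cdh1, the E-cadherin gene of adherens junctions, read 812.13, 302.76 and 487.47 in JG and 2.41, 6.13 and 8.15 in MSC (4.57 ± 0.39, limma adjusted p = 0.000911). Epcam, a surface protein of epithelial cells, read 943.07, 324.16 and 305.31 in JG and 9.3, 13.21 and 12.16 in MSC. The serine protease gene St14 was highest in JG sample 1 (732.34), as were Cdh1 and Epcam. Esrp2, an epithelial splicing factor, read 526.79, 170.99 and 357.22 in JG and 1267.49, 1078.33 and 1355.56 in MSC (-1.89 ± 0.42, limma adjusted p = 0.0305), but its second probe set was called in the opposite direction. Cdh1 and Epcam were called with each sample dropped in turn, Esrp2 lost it without JG sample 3 or any 1 MSC sample, and 5 genes of the list were higher without JG sample 2.

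Of the other grainyhead and Tfcp2 relatives, Tfcp2l1 and Grhl3 were called higher in JG. Tfcp2l1, a collecting duct factor, read 680.31, 458.88 and 1071.32 in JG and 15.8, 37.36 and 56.54 in MSC (3.84 ± 0.44, limma adjusted p = 0.00291). Grhl3 stayed low, at 15.47 to 23.32 in JG and 1.01 to 1.28 in MSC, and lost its call without JG sample 3 or any 1 MSC sample. Without JG sample 1, 1 of these 5 relatives was called lower. None of the 3 other epithelial Ets genes (Elf3, Elf5, Spdef) was called, and Elf5 reached 78.5 in JG sample 3 alone, with 14.29 and 2.44 in the other JG samples.

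Pax8 was the only measured member whose brightest probe set was lower in JG. That probe set (1418208_at) read 128.38, 185.75 and 83.58 in JG and 260.86, 276.82 and 326.49 in MSC. Every JG value lay below every MSC value, yet the difference of -1.09 ± 0.32 missed the threshold (limma adjusted p = 0.0681). It was called without JG sample 2 (a difference of -1.34, limma adjusted p = 0.0292) and with array weights (-1.44, limma adjusted p = 0.00583). The second probe set (1446561_at) spread widely in both groups, with 6.18, 98.33 and 628.64 in JG and 222.62, 24.09 and 40.68 in MSC. Its difference of 0.53 ± 1.31 took the opposite sign and was not called (limma adjusted p = 0.830). The second probe set gave no clear direction, since its difference was -0.70 without JG sample 3. The lower Pax8 in JG thus rests on the brighter probe set alone, which was not called in the main fit.

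Pax8 also marks the parietal cells of Bowman's capsule, and other genes of the podocyte and parietal list were high in MSC. Wt1, a zinc-finger factor of podocytes, read 3.36, 7.75 and 16.8 in JG and 406.64, 397.95 and 259.47 in MSC (-3.88 ± 0.31, limma adjusted p = 0.000750). Cldn1, a tight-junction gene of parietal cells, read 111.38, 21.81 and 48.74 in JG and 335.66, 205.79 and 831.24 in MSC (-2.58 ± 0.64, limma adjusted p = 0.0427). Synpo, an actin-binding protein of podocyte foot processes, was also lower in JG, and Podxl, a sialoprotein shared with endothelium, was higher. The podocyte gene Nphs1 lay between 3 and 4.33 in MSC. Of these 4 calls only that of Wt1 held whichever sample was left out.

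The 7 other Pax genes gave no call. For Pax6 the groups did not overlap, though it missed the threshold, at 32.4, 100.78 and 47.43 in JG and 15.3, 24.74 and 24.79 in MSC (0.93 ± 0.37, limma adjusted p = 0.148). Pax9 read 332.35 in JG sample 3 and 19.5 to 67.02 in the other 5 samples. Without JG sample 1, 2 of the 7 were called.

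Lhx1, which patterns the early nephron, was called higher at a low level. Its brighter probe set (1421951_at) read 38.2, 30.19 and 39.48 in JG and 1.32, 1.46 and 1.32 in MSC (1.58 ± 0.21, limma adjusted p = 0.00562). The 3 JG values lay close together, near the medians of their arrays, and the MSC values lay at the floor. The second probe set (1450428_at) had the same direction with 20.81, 6.92 and 30.46 in JG and 1.02, 3.09 and 1.87 in MSC and was not called (0.92 ± 0.31, limma adjusted p = 0.121 over all probe sets). The gene call held whichever sample was left out, with a highest adjusted p of 0.0375 in limma. Of 11 other LIM homeobox genes only Lmx1b was called, lower in JG: it read 21.28, 8.55 and 26.26 in JG and 241.16, 184.81 and 279.32 in MSC (-2.87 ± 0.30, limma adjusted p = 0.00216). Without JG sample 1, 1 of the 11 was also called higher. Lmx1b is a factor of podocytes and limb mesenchyme.

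Genes known to respond to PAX2 or PAX8 went both ways. Of 11, Cdh16, Npnt, Slc14a2 and Lhx1 itself were called higher in JG and Wt1 and Gdnf lower, with a median difference of 1.58. That median is the value of Lhx1, which is also the median of the measured members, so the 2 medians are not separate results. Cdh16, the kidney-specific cadherin, read 3577.97, 2925.02 and 4452.37 in JG and 52.76, 46.46 and 35.78 in MSC (5.90 ± 0.26, limma adjusted p = 9.18e-05). Gdnf, the growth factor that draws out the ureteric bud, was at most 11.76 in JG and read 30.54, 97.94 and 71.29 in MSC. Its receptor gene Ret was at most 31.89 in either group and was not called. Cdh16, Wt1 and Lhx1 were called with each sample dropped in turn. The 4 higher became 2 without MSC sample 1 or 2, and the 2 lower became 1 without JG sample 2 or 3 or MSC sample 2 or 3.

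Irx3, a homeobox factor of the proximal and middle nephron, varied little within JG. Its single probe set (1418517_at) read 225.96, 216.38 and 264.52 in JG and 38.47, 33.09 and 81.18 in MSC. The lowest JG value was above the highest MSC value, and the difference was 1.97 ± 0.32 (limma adjusted p = 0.0112). The call was lost without MSC sample 1 (limma adjusted p = 0.0577) or MSC sample 2 (0.0552), with differences of 1.86 and 1.79. In the same samples the summed proximal tubule markers were 30115, 22907 and 31013 in JG, and their part in the Irx3 difference was not tested.

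Another Iroquois gene took the opposite direction to Irx3. Irx5 read 1.24, 8.03 and 5.71 in JG and 33.83, 26.79 and 55.83 in MSC (-1.36 ± 0.29, limma adjusted p = 0.0274), and lost its call without JG sample 3 or any 1 MSC sample. Irx1 overlapped between the groups, with 562.77, 185.66 and 482.26 in JG and 99.29, 140.41 and 388.16 in MSC (limma adjusted p = 0.308). MSC sample 3 was the high MSC sample for Irx1, Irx3 and Irx5. Irx2, Irx4 and Irx6 were not called.

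Tfap2b, the AP-2 factor that mice need to form the distal convoluted tubule, was called higher in JG with a wide spread. Its brighter probe set (1435670_at) read 254.99, 38.03 and 100.77 in JG and 4.61, 7.5 and 10.93 in MSC (2.34 ± 0.58, limma adjusted p = 0.0421 over all genes). The second (1423340_at) read 65.32, 11.26 and 38.9 in JG and 5.43, 12.32 and 11.51 in MSC, so the groups overlapped at JG sample 2 (0.96 ± 0.43, limma adjusted p = 0.215 over all probe sets). Both probe sets ranked JG sample 1 above sample 3 and sample 3 above sample 2. The gene call was lost without JG sample 3 (limma adjusted p = 0.103) or without MSC sample 1, 2 or 3 (0.141, 0.135 and 0.128), and the brighter probe set had an adjusted p of 0.0572 when all probe sets were tested.

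The sum of the distal convoluted tubule markers had the same order among the JG samples, as did the sums of the thick ascending limb, general epithelial, stromal and endothelial markers. Of the single distal markers, Trpm6 and Slc8a1 did not have it and were highest in JG sample 3, at 400.2 and 885.58. The distal summed intensities were 14189, 3509 and 9687 in JG samples 1 to 3 and 73.05 to 84.6 in MSC. Slc12a3, the thiazide-sensitive cotransporter gene, read 1623.18, 257.76 and 697.96 in JG and 1 to 1.8 in MSC. Of 9 measured genes of that segment on a longer list, 7 were called higher in JG and none lower, with a median of 3.54. Slc12a3, Pvalb, Trpm6 and Calb1 are on both lists. The 7 became 6 without JG sample 3 or any 1 MSC sample. Without JG sample 1, 1 of the 9 was called lower. Kcnj16, a potassium channel gene, read 3209.51, 2044.44 and 2771.29 in JG and at most 21.95 in MSC (6.72 ± 0.35, limma adjusted p = 0.000138). Any part of distal tubule cells in the Tfap2b difference was not tested. Of the 4 other AP-2 genes none was called, and Tfap2a read 25.92, 120.38 and 127.13 in JG and 6.91, 26.17 and 12.02 in MSC (1.64 ± 0.54, limma adjusted p = 0.0944). Without JG sample 1, 1 of the 4 was called higher.

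Foxi1, the forkhead factor of intercalated cells, was not called. Its single probe set (1449458_at) read 17.4, 1 and 120.02 in JG and 1.4, 13.67 and 9.46 in MSC (0.85 ± 0.75, limma adjusted p = 0.480). JG sample 3 stood alone, and JG sample 2 was the lowest of all 6 samples. Without JG sample 3 the difference was 0.01, and with array weights, which count less uniform arrays for less, Foxi1 was called in the gene fit (1.94, limma adjusted p = 0.0349). In the fit over all probe sets with array weights it was not called (1.74, limma adjusted p = 0.0852). Yet 9 of the 11 genes listed as responding to FOXI1 in intercalated cells were called higher in JG and none lower, with a median difference of 3.72. With 1 sample left out, 6 to 8 were called higher, and 6 calls held whichever sample was dropped. Atp6v1b1, Atp6v0a4, Slc4a1, Slc26a4, Slc4a9 and Aqp6 are also among the intercalated cell markers counted above, so the 2 lists are not separate results. The proton pump subunit gene Atp6v1b1 read 1469.8, 603.14 and 1419.34 in JG and 1, 7.92 and 9.8 in MSC (5.65 ± 0.41, limma adjusted p = 0.000500). Rhbg, an ammonia channel gene, read 287.21, 545.54 and 1074.92 in JG and at most 7.04 in MSC.

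JG sample 2 had no Foxi1 signal above 1 but did have transcripts of intercalated cell markers. There the chloride-bicarbonate exchanger genes Slc4a1 and Slc4a9 read 598.47 and 549.02, against 665.34 and 708.09 in JG sample 3 and 147.39 and 55.52 in JG sample 1. Among the JG samples, Slc26a4 and Atp6v1b1 were lowest in JG sample 2, at 62.68 and 603.14. The other measured markers of that list, Atp6v0a4, Aqp6 and Insrr, were highest there. The summed intercalated markers were 2417, 2739 and 4017 in JG samples 1 to 3 and 44.47 to 81.81 in MSC. The ubiquitous pump subunit genes Atp6v1a and Atp6v1e1 were not called (limma adjusted p = 0.637 and 0.815). Foxi2 and Foxi3 were not analysed here.

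**Figure D3:**
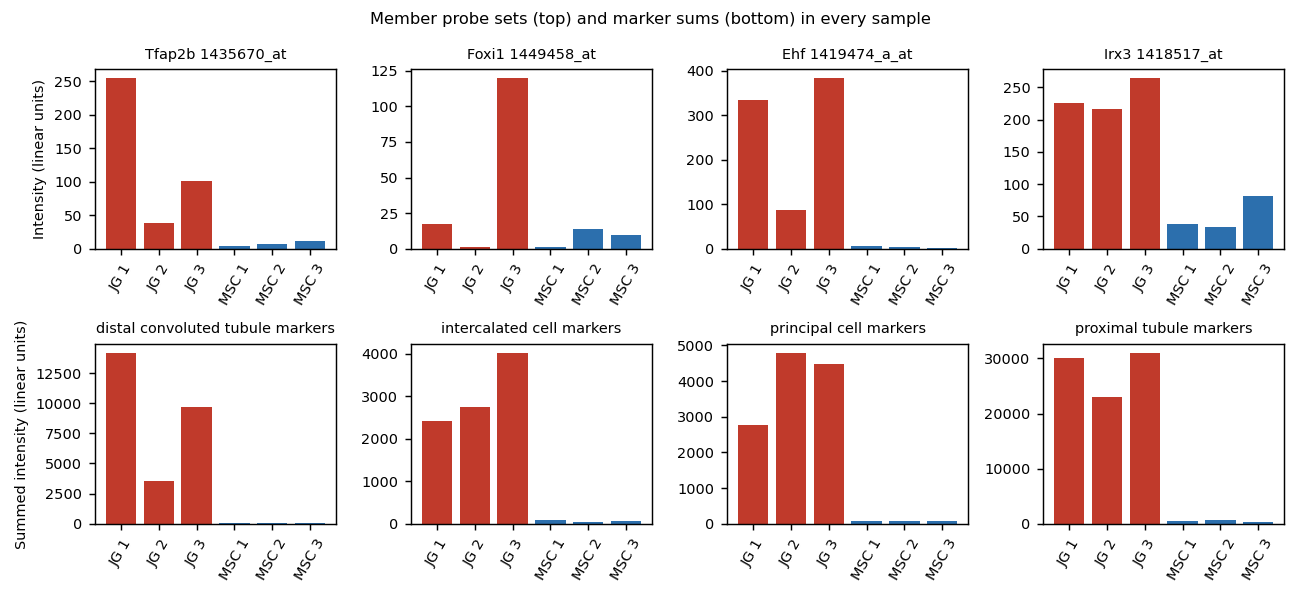
Intensity of 4 member probe sets (top row) and summed intensity of the markers of a nephron segment (bottom row) in each sample, with the 3 JG samples in red left of the 3 MSC samples in blue and all axes starting at 0. Tfap2b and the distal convoluted tubule sum share the order sample 1, sample 3, sample 2 within JG, which 4 other marker sums not drawn here also have, while Foxi1 is at 1 in JG sample 2, where the intercalated sum is 2739. Within JG, the brightest Ehf probe set is lowest in sample 2, at 87.22, where the principal cell sum is highest, at 4794. The other called Ehf probe set, not drawn here, is highest in sample 2, at 87.66. Of the single principal cell markers, Aqp2, Aqp3 and Aqp4 are highest in sample 2, and Scnn1b, Scnn1g, Avpr2 and Elf5 are lowest there. Irx3 and the proximal tubule sum share the order sample 3, sample 1, sample 2. The sum of the other nephron and collecting duct factors, not drawn here, also has it. Of the single proximal markers, Kap, Slc5a2, Lrp2 and Hnf4a have it, and Slc34a1, Cubn, Slc22a6, Slc22a8, Slc5a12 and Aqp1 do not.

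The sequence around the start sites of 5 members is given because 3 of them, Lhx1, Tfap2b and Irx3, were called higher in JG, Pax8 ran the other way, and Foxi1 was not called while most of its listed target genes were. Each window runs from 250 bases before the start to 50 after it, 5′ to 3′ on the gene's strand, from RefSeq for GRCm38.p6. The windows are chr11:84525485-84525784 (minus strand) for Lhx1, chr1:19211804-19212103 (plus strand) for Tfap2b, chr8:91801605-91801904 (minus strand) for Irx3, chr2:24475550-24475849 (minus strand) for Pax8 and chr11:34208040-34208339 (minus strand) for Foxi1. Capitals mark every match, on either strand, to the motifs described after the sequences.
Lhx1: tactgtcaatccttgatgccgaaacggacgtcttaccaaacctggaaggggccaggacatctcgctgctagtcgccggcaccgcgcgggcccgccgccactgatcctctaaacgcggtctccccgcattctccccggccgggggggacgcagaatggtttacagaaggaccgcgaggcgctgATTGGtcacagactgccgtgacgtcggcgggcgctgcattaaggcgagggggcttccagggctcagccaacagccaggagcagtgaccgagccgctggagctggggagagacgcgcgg
Tfap2b: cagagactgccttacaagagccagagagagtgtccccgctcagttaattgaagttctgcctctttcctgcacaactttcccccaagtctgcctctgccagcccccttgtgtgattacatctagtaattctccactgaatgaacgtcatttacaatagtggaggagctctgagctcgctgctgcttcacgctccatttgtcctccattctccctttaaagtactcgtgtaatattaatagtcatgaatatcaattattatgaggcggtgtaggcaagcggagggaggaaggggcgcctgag
Irx3: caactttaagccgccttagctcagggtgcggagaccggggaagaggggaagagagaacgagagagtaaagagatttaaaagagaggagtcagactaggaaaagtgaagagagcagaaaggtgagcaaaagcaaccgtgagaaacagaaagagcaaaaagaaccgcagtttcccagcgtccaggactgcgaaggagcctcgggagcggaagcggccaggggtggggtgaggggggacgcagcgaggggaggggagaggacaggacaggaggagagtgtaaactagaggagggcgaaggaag
Pax8: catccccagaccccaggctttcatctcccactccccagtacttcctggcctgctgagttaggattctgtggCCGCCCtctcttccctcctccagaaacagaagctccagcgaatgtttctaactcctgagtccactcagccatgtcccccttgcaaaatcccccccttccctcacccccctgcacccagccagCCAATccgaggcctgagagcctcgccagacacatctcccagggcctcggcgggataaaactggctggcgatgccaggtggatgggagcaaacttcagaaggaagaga
Foxi1: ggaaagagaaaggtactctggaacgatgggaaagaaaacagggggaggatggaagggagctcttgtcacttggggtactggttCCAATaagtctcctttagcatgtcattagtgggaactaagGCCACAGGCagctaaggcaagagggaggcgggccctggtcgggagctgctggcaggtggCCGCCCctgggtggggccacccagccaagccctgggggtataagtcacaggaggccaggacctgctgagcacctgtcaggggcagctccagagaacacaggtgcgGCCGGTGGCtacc

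Motifs of the members' own families were searched on both strands in these windows. The Pax motif was GCGTGAC. For LIM homeobox proteins it was TAATTA. The AP-2 motif was GCCNNNGGC, where N is any base. Grainyhead proteins had AACCNGTT as theirs. For Ets proteins it was CCGGAA, for forkhead proteins GTAAACA and for Iroquois proteins ACANNTGT. The Foxi1 window held 2 matches to the AP-2 motif, the family of Tfap2b, at positions -127 and 38 from the start. That motif was present in 16.6% of all 32851 windows of this length. The other 4 windows held none of the 7 family motifs, which says only that these letters are not in these windows. Of 3 general motifs added after the sequences were seen, the TATA box as TATAAA was in none of the 5 windows and in 13.6% of all. The CCAAT box was found in the Lhx1, Pax8 and Foxi1 windows and in 37.4% of all windows, and the GC box, written GGGCGG, in the Pax8 and Foxi1 windows and in 35.7% of all. The Lhx1 window had 31 CpG dinucleotides, against 14 for Irx3, 8 for Tfap2b, 7 for Pax8, 6 for Foxi1 and a median of 7 over all windows.

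Among 28 measured transcription factors of nephron and collecting duct epithelium outside the members, 11 were called higher in JG and none lower, with a median difference of 0.83. Pou3f3, a factor of the loop of Henle, read 1996.57, 1914.88 and 2304.25 in JG and 12.65, 8.55 and 17.01 in MSC (6.19 ± 0.23, limma adjusted p = 5.86e-05). Hnf4a, a nuclear receptor of the proximal tubule, read 946.51, 514.56 and 1322.3 in JG and 12.22, 15.7 and 12.82 in MSC (4.90 ± 0.37, limma adjusted p = 0.000594). Ppara, the fatty acid oxidation receptor, read 1146.95, 375.92 and 223.89 in JG and at most 16.72 in MSC. The remaining calls were Tfcp2l1, Ovol1, Esrrb, Esrrg, Nr3c2, Maf, Nr1h4 and Mecom. Of these 11, the calls of Hnf4a, Pou3f3, Tfcp2l1, Ovol1, Ppara and Nr1h4 held whichever sample was left out, and the count was 6, 7 and 6 without MSC samples 1, 2 and 3. It reached 13 when JG sample 2 was dropped, and 2 of the 28 were called lower when JG sample 1 was dropped. Emx2, which is needed with Pax2 for ureteric bud growth, lay lower in JG, at 482.72, 253.09 and 334.43 against 622.64, 584.76 and 1128.76 in MSC, and was not called (limma adjusted p = 0.105).

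Transcription factors of mesenchymal cells and of epithelial-mesenchymal transition moved the other way or did not pass. Of 11, Snai2, Foxc2, Foxd1 and Twist2 were called lower in JG and none higher, with a median difference of -1.49. Snai2, a repressor of epithelial cadherins, read 52.43, 10.38 and 32.52 in JG and 2083.81, 2262.74 and 2920.29 in MSC (-5.76 ± 0.39, limma adjusted p = 0.000369). Zeb1, which antagonises Grhl2 in epithelial cells, read 315.97, 71.53 and 360.99 in JG and 768.72, 456.4 and 641.2 in MSC and was not called (limma adjusted p = 0.145). Zeb2 overlapped between the groups. Without JG sample 2, 1 of the 11 was called higher. The calls of Snai2, Foxc2 and Foxd1 held with each sample dropped in turn.

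**Figure D4:**
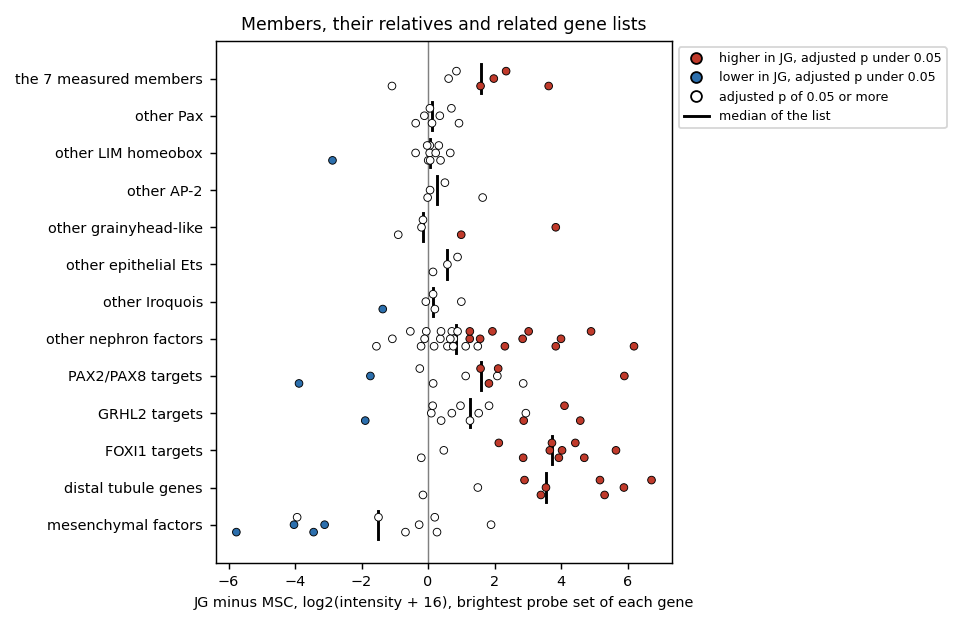
JG minus MSC difference on the log2 scale of each measured gene, by its brightest probe set, for the members (top row), their relatives and related lists, with a bar at each list's median. The other Pax, AP-2 and epithelial Ets genes have no filled point, while 9 of the 11 FOXI1 target genes are filled and higher in JG.

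The genes most like each called member were sought among genes with a mean of at least 100 in JG. The measure was Pearson's correlation over the 6 arrays on the log2 scale. It is given as a description, since the 6 points share 2 groups and the filter used JG, where the called members were high. A gene with a clear step between the groups therefore ranks high. Lhx1 was most like Slc16a14, Aadat and Rdh16, each with a correlation of 1.00 after rounding, and 1052 of 8151 genes exceeded 0.9. Tfap2b was most like Slc40a1, Pla2g7 and Cyfip2, and Ehf most like Acnat2, Iyd and Ptpru. Irx3 was most like Agps, Slc22a23 and Ceacam1. For those 3 members the number above 0.9 was 560, 885 and 883 of 8150.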

How the data were processed

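RNA from 3 JG and 3 MSC samples was extracted with a Picopure kit and 100 ng was made into biotin-labelled cRNA for Affymetrix arrays, per the labels' protocols. The values the authors deposited are a linear intensity for every probe set. Their summarisation, background correction and scaling steps are not given in the sources used here; no detection calls were used. Gene names came from the platform annotation, which paired 34945 of 45037 probe sets with 1 gene, 932 with several and 9160 with none, and the gene identifiers of 34741 of those with 1 gene were found in RefSeq for GRCm38.p6, with 0 symbols changed.

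Values were taken as log2(intensity + 16) without a filter or further normalization. The test was limma 3.58.1 in R 4.3.3 (lmFit, then eBayes) for JG minus MSC, with no covariate; p-values were adjusted by Benjamini and Hochberg over 18193 genes (brightest probe set by mean intensity) and again over all 45037 probe sets. The gene fit was tested on simulated data, and the fit over all probe sets was not. Per-sample values are intensities, ± is SE for differences and SD for means, with n = 3 each, and the number of arrays limits the precision. An exact permutation test of 3 against 3 cannot go below p = 0.1 and was not used.

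All 8 members were named with every probe set, together with up to 4 called genes per related list, up to 3 bright markers per cell type, Cd44 and the 3 most alike genes. Genes named although not called, and further genes singled out, were chosen after their values were seen. The members and lists were chosen with earlier results of these data known. Same-numbered samples did not deviate together: the correlations of their deviations were -0.20, -0.01 and -0.01 for numbers 1, 2 and 3. Figures were drawn with matplotlib 3.10.9.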

Additional observations from a re-analysis of the deposited data

How the results depend on the processing

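Of the 357 differences of single members recomputed under alternatives, 313 kept their direction and their side of the threshold, 21 lost a call, 21 gained one and 2 turned sign. The 357 pool the gene fit and the probe-set fit, so a gene's brightest probe set enters both. The 313 include differences that were not called in the main fit and stayed so. Both sign changes came without JG sample 3 in uncalled probe sets, with ranges over left-out samples of -0.70 to 1.735 for Pax8 1446561_at and -0.0099 to 0.067 for Grhl2 1431878_at. Lhx1 and Ehf were called higher in every gene fit that tested them. Lhx1, Tfap2b, Grhl2 and Foxi1 fell below the median filter, which leaves 3 members tested and 2 called higher. Tfap2b was also lost with a pseudocount of 64 (limma adjusted p = 0.111), with the mean of its probe sets (0.0624) and with the replicate block (0.0753). The replicate block changed no other gene call. Labels do not say that the numbers mark pairs. With array weights 5 genes were called higher (Foxi1 joined) and 1 lower (Pax8). Leaving out 1 sample gave 2 to 4 genes higher, and 0 to 1 lower (Pax8 without JG sample 2). Among the 16 probe sets, 7 were called higher and 2 lower with array weights, 1 higher with the replicate block (Ehf), 1 lower with quantile normalization (Ehf 1447760_x_at), and 1 to 8 higher and 0 to 1 lower with 1 sample left out. The lowest count, 1 (Lhx1), came without MSC sample 1 or 2, and the highest, 8, without JG sample 2. With a pseudocount of 1, 6 probe sets were called higher. Shares called among all genes and probe sets in these alternative fits are not given here, so the member counts have no background beside them. Differences of dim members grow as the pseudocount shrinks: the Lhx1 difference was 3.96 with a pseudocount of 1 and 0.61 with 64. The low signal of Lhx1, Grhl2 and Foxi1 limits what these arrays can show.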

Other observations

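Partners and progenitor factors gave few calls. Of 12 binding partners and cofactors of Pax, LIM homeobox and AP-2 proteins, Kctd1 and Ssbp2 were called lower in JG and none higher, with a median difference of -0.71. Kctd1, which encodes a repressor of AP-2 proteins, read 185.34, 114.97 and 77.19 in JG and 768.55, 818 and 1041.52 in MSC (-2.71 ± 0.34, limma adjusted p = 0.00423). Ssbp2, a partner of the LIM domain adaptor, read 163.19, 177.48 and 260.04 in JG and 461.31, 385.67 and 507.82 in MSC (limma adjusted p = 0.0385) and lost its call without JG sample 2 or any 1 MSC sample. Without JG sample 1, 4 of the 12 were lower and 1 was higher. Of 9 measured nephron progenitor factors, Wt1 and Hoxa11 were lower in JG and none was higher. Hoxa11, a homeobox gene of the embryonic kidney, read 5.42, 8.52 and 32.9 in JG and 109.19, 115.29 and 109.57 in MSC (-2.11 ± 0.36, limma adjusted p = 0.0124), and its highest adjusted p with 1 sample left out was 0.0624.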
